A study of Mus musculus with 36 samples.

Results

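The genes of 10 plasma proteins that the liver secretes were followed through liver, kidney and heart of growing mice. They were chosen by name, as a list of known liver products, and matched by gene symbol to 10 of the 78239 Ensembl gene identifiers in the count tables. They are Alb (albumin), the apolipoprotein genes Apoa1, Apoa2, Apoc3 and Apob, the serpin genes Serpina1a (an alpha-1-antitrypsin) and Serpina3k, and Fga, Fgb and Fgg, which encode the 3 chains of fibrinogen. Polyadenylated RNA was sequenced from heart, kidney and liver of male wild-type mice aged 8, 10 or 12 weeks, all of the inbred strain C57BL/6NCrl. Each of the 9 groups held 4 libraries, described as biological replicates, and no group carried a transgene or received an experimental treatment. All mice were anesthetized with injected ketamine and xylazine and bled before the organs were taken. The purpose of the series was to follow gene expression in organs that are still maturing at these ages.

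Hepatocytes are the main source of the proteins of blood plasma. Albumin carries fatty acids, hormones and drugs and holds water in the circulation. Apolipoproteins give lipoprotein particles their structure and direct their traffic, alpha-1-antitrypsins and their relatives inhibit proteases, and fibrinogen is cut by thrombin to form the fibrin of a clot. The genes are switched on in hepatocytes by a shared set of transcription factors, among them HNF4 and C/EBP proteins, and fibrinogen is in addition raised in the acute phase response to interleukin 6.

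The genes lie at 6 places of the mouse genome (GRCm39), and 3 of these hold several of the genes. Fgg (chr3:82915030-82922363), Fga (chr3:82933383-82940934) and Fgb (chr3:82947448-82957170, on the minus strand) stand side by side within 42141 bases. Apoa1 (chr9:46139878-46142212) and Apoc3 (chr9:46142527-46146934, on the minus strand) end 314 bases from each other. Serpina1a (chr12:103819554-103832088, on the minus strand) and Serpina3k (chr12:104303391-104314397) belong to the serpin cluster of the chromosome that also holds Apob (chr12:8027648-8066835). Alb lies at chr5:90608647-90624696 and Apoa2 at chr1:171049125-171053948.

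The 250 bases before the start of the canonical transcript are shown for Alb, the gene of the 10 with the highest level, and for the 3 fibrinogen genes, whose levels moved together across livers. This start lies 102 bases inside the outer edge of the gene for Alb, 139 for Fga, 1 for Fgg and 0 for Fgb, since the gene positions given above span all transcripts. The windows were read from GRCm39 from 5′ to 3′ along the strand of the gene, and capitals mark the letters CTGGGAA, a core of sites for the interleukin 6 factor STAT3, where they occur on either strand.
Alb, chr5:90608499-90608748, plus strand: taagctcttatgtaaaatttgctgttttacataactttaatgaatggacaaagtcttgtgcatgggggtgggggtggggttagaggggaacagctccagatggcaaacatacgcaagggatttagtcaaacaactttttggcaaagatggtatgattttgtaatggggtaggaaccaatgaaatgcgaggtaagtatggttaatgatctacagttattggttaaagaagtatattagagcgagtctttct
Fga, chr3:82933272-82933521, plus strand: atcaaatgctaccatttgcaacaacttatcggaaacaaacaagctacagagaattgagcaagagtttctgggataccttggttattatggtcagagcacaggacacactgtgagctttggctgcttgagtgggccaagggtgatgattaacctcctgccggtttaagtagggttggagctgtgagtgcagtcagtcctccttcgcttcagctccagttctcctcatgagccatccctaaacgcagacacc
Fgb, chr3:82957171-82957420, minus strand: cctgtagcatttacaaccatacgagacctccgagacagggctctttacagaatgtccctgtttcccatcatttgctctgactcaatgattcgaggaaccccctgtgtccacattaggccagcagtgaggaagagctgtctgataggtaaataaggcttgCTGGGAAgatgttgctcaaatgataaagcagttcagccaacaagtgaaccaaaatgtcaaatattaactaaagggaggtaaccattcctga
Fgg, chr3:82914781-82915030, plus strand: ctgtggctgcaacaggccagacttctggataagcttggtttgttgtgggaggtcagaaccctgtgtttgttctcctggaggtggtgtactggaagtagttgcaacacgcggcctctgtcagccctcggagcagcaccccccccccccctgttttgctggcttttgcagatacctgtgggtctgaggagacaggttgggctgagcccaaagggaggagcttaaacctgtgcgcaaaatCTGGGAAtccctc
Each motif was searched on both strands of the 10 promoters and of 21723 promoters of the same length over the genome. CTGGGAA was found in 2 of the 10, 91 to 85 bases before the start of Fgb and 13 to 7 before that of Fgg, and in 9.759% of all promoters. TATAAA was found before Apoa2, Apoc3 and Apob (11.93% of all), and CAAAGTCCA, a form of the HNF4 site, before none of the 10 (0.3729% of all). A match of letters describes these windows and is not a measured binding site.

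Levels are given as CPM, the read pairs counted on a gene divided by those counted on all genes of the library and scaled to a fixed library size. The libraries held 21031599 to 33637390 counted pairs, and the marker genes of each labelled tissue were high where they belong. Of the summed CPM of 10 cardiomyocyte markers, hearts held 53442 to 69832 and livers 0.177 to 1.45. For 12 kidney tubule markers the range was 32670 to 40273 in kidney and 0.505 to 3.33 in liver. In liver, 25 intracellular hepatocyte genes summed to 30751 to 40103. No pair of libraries of a group was alike within sampling noise, so libraries within a group were counted as separate samples. In bulk tissue, fewer cells of a type and less RNA per cell cannot be told apart.

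In liver, the 10 genes together took 11.6% ± 1.22 of all counted pairs (SD, n = 12). The share was 12.6% ± 1.11 at 8 weeks, 10.6% ± 0.946 at 10 weeks and 11.5% ± 0.906 at 12 weeks (SD, n = 4 each). Alb alone made up 5.35% to 8.88% of a library. A long mRNA yields more fragments than a short one, so the 10 genes were ordered as CPM per kilobase of exon, which for genes with several transcripts depends on the length used. Among all genes of the liver on this scale, Alb ranked 2, Apoa1 6, Serpina3k 18, Fga 23, Fgb 28, Fgg 35, Serpina1a 75, Apob 78, Apoc3 85 and Apoa2 303. Alb stood at 14069 ± 1913, Apoa1 at 4686 ± 593 and Serpina3k at 2224 ± 277 (SD, n = 12 livers). The fibrinogen genes followed with 1859 ± 598 for Fga, 1344 ± 417 for Fgb and 1082 ± 302 for Fgg, and their ranges over the livers overlapped. Within each liver, Fga lay above Fgb and Fgb above Fgg in all 12. Serpina3k lay above Fga in 10 of the 12. With the longest transcript as length, Fgb lay above Fgg in 2 of the 12. Serpina1a at 455 ± 37.4, Apob at 438 ± 64.3 and Apoc3 at 389 ± 46.0 CPM per kilobase overlapped too, with Serpina1a above Apob in 7 of the 12 livers and Apob above Apoc3 in 9. Apoa2 came last at 100 ± 16.0.

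The low place of Apoa2 depended on how pairs were counted. The authors' column without regard to strand leaves out any pair that touches exons of 2 genes, and Apoa2 shares 889 exon bases with Tomm40l, a gene of the mitochondrial outer membrane on the opposite strand, and 236 with the non-coding gene Gm71631. Of the liver pairs that the 2 strand columns give to Apoa2, 10.2% were kept. Fgg shares 200 exon bases with the antisense non-coding gene Gm30097 and kept 55.8%, while the other 8 genes kept at least 99.5%. With the strand columns summed, the liver mean of Apoa2 was 988 ± 141 and that of Fgg 1941 ± 549 CPM per kilobase (SD, n = 12), and Fga then lay above Fgg in 2 of the 12 livers. The libraries carry no strand information, so pairs of Apoa2 or Fgg and pairs of their antisense neighbours cannot be told apart in these sums. Serpina1a is 1 of a family of near-identical copies, and pairs that match several copies equally well were counted for none of them.

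**Figure D1:**
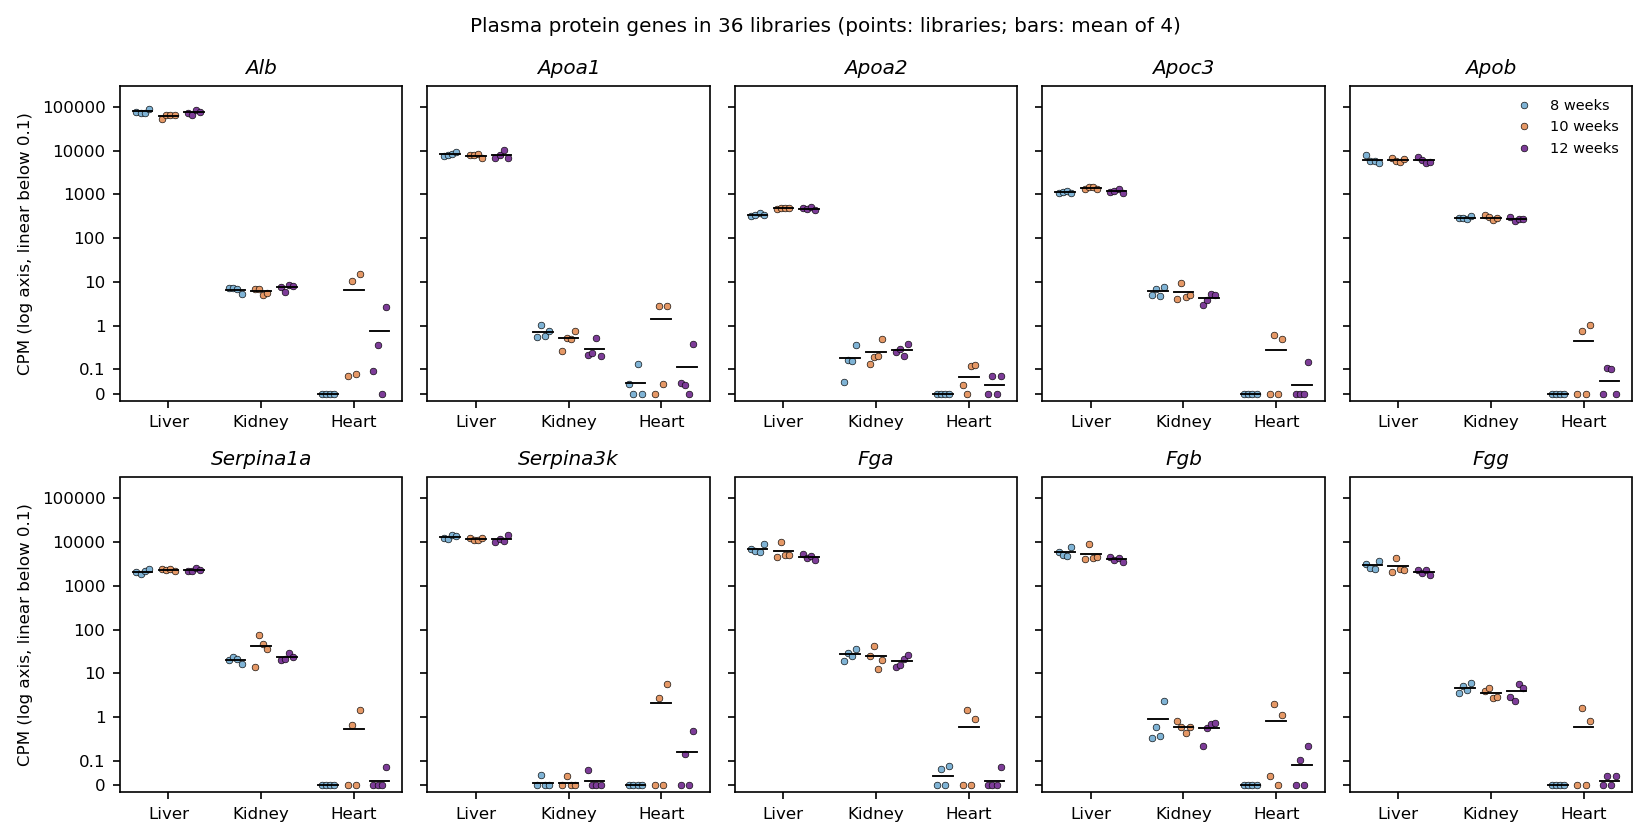
Level of each of the 10 genes in every library, in CPM on an axis that is logarithmic above 0.1 and linear below, by tissue and coloured by age (points are libraries, bars the mean of 4). Alb lies between 53457 and 88834 CPM in liver, between 5.05 and 8.40 in kidney and at 0 in the 4 hearts of 8 weeks, and 3 heart libraries stand above the others for most genes.

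Ages were compared in liver for the 10 genes with edgeR's quasi-likelihood F-test over 14672 genes, with Benjamini-Hochberg adjustment across all of them. At 12 against 8 weeks, 1 of the 10 passed an adjusted p of 0.05, Apoa2, which was higher at 12 weeks. Over all genes tested, 0.239% were called in this comparison and 0.177% were called higher at 12 weeks (2.88% called by DESeq2 and 0.232% by limma-voom). At 10 against 8 weeks none of the 10 was called by edgeR (0.0204% of all genes), with 3 at an unadjusted p under 0.05 (14.3% of all genes), 1 called by DESeq2, Apoa2 (2.46% of all genes), and 0 by limma-voom. At 12 against 10 weeks none was called by any of these tools (0.0545% of all genes by edgeR), with 1 at an unadjusted p under 0.05 (14.1% of all genes). The median log2 fold change of the 10 genes at 12 against 8 weeks was -0.04, beside -0.00 over all genes tested. Where every liver of an age lies above or below every liver of another age, the share of all genes that do so was not counted.

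Albumin mRNA was lowest at 10 weeks without a call. The 4 livers of 8 weeks held 77428, 74307, 73976 and 88834 CPM of Alb, those of 10 weeks 53457, 66554, 64724 and 63842, and those of 12 weeks 70574, 66305, 85584 and 75802. Every liver of 10 weeks lay below every liver of 8 weeks, and the 12-week values overlapped both. The means were 78636 ± 6974, 62144 ± 5900.5 and 74566 ± 8308 CPM (SD, n = 4 each). The log2 fold change was -0.40 at 10 against 8 weeks (SE 0.139, edgeR adjusted p = 0.224), 0.34 at 12 against 10 weeks (SE 0.138, adjusted p = 0.285) and -0.05 at 12 against 8 weeks (SE 0.138, adjusted p = 0.890). The unmapped share of liver read pairs also differed, with 2.81% to 6.96% at 8 weeks. It was 6.504% to 13.03% at 10 weeks and 6.46% to 9.51% at 12 weeks. The liver lowest in Alb, 10 weeks replicate 1, had the highest unmapped share. The liver highest in Alb, 8 weeks replicate 4, had the lowest. The part of unmapped pairs in the Alb values and in the share of the 10 genes was not tested.

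Among the apolipoprotein genes, Apoa2, which encodes the second most abundant protein of high-density lipoprotein, was called. Its livers held 312, 343, 376 and 345 CPM at 8 weeks, 475, 498, 479 and 494 at 10 weeks, and 477, 469, 502 and 449 at 12 weeks. All 8 older livers lay above all 4 livers of 8 weeks, and the 10- and 12-week values overlapped. The log2 fold change was 0.49 at 12 against 8 weeks (SE 0.0894, edgeR adjusted p = 0.0449) and 0.44 at 10 against 8 weeks (SE 0.0894, adjusted p = 0.10). With the 2 strand columns summed, the groups were 3697 ± 183, 4354 ± 410 and 4844 ± 547 CPM at the 3 ages (SD, n = 4), the difference at 12 against 8 weeks was 0.41 (SE 0.0973, adjusted p = 0.0974), and the call was lost. DESeq2 (adjusted p = 1.93e-05) and limma-voom (0.0370) made the call too, while it was held in 2 of the 12 fits that left out 1 liver, without 10 weeks replicate 2 and without 12 weeks replicate 4 (adjusted p 0.0323 to 0.150 over the 12).

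The other apolipoprotein genes passed no test across ages. Apoc3, whose protein slows the clearance of triglyceride-rich particles, stood at 1053, 1131, 1186 and 1069 CPM at 8 weeks, at 1313, 1446, 1480.3 and 1320.2 at 10 weeks and at 1130.2, 1200.3, 1327 and 1093 at 12 weeks. The 10-week livers all lay above the 8-week livers (log2 fold change 0.27, SE 0.0971, edgeR adjusted p = 0.232), and the 12-week livers overlapped both. Apoa1, the main protein of high-density lipoprotein, stood at 8299.8 ± 901, 7681 ± 556 and 8029 ± 1546 CPM at the 3 ages, with overlap between all of them. Apob, the protein that each very-low-density particle carries as its scaffold, stood at 6183 ± 1305, 6104 ± 657 and 6037 ± 892 CPM (SD, n = 4 each). Its log2 fold change at 12 against 8 weeks was -0.00 (SE 0.141, adjusted p = 0.994).

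The serpin genes also overlapped across ages. Serpina1a, whose product inhibits neutrophil elastase, had means of 2118 ± 205, 2328 ± 103 and 2312 ± 193 CPM at 8, 10 and 12 weeks, and its 12 livers reached from 1903 to 2437 at 8 and 10 weeks and from 2146 to 2589.5 at 12 weeks. Its SD relative to its mean was the smallest of the 10 genes over the 12 livers. Serpina3k, a relative of alpha-1-antichymotrypsin, had means of 13156 ± 1426, 11927 ± 904 and 11616 ± 1968 CPM (SD, n = 4 each). At 12 against 8 weeks the log2 fold change was 0.15 for Serpina1a (SE 0.114, edgeR adjusted p = 0.573) and -0.16 for Serpina3k (SE 0.139, adjusted p = 0.630).

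**Figure D2:**
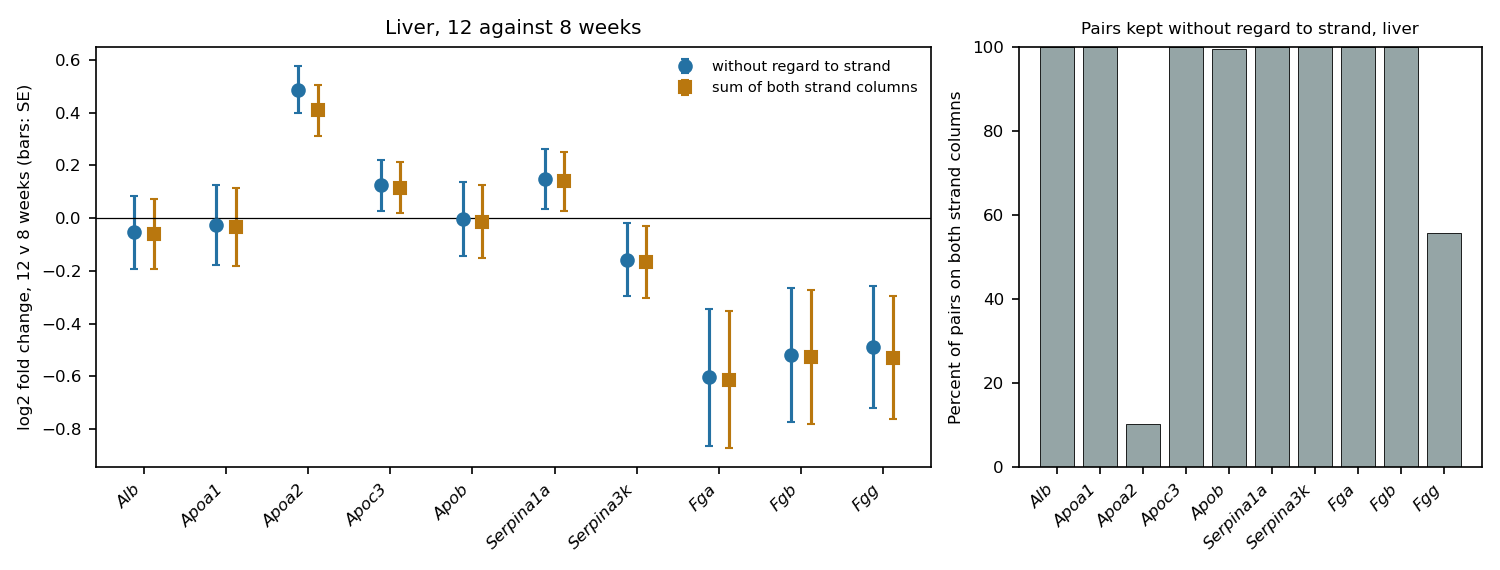
Left, log2 fold change of each gene in liver at 12 against 8 weeks from edgeR, with bars of 1 standard error, for counts without regard to strand and for the sum of both strand columns; right, the percent of each gene's liver pairs that the column without regard to strand kept. Apoa2 stands highest at 0.49 and 0.41 and kept 10.2% of its pairs, and the 3 fibrinogen genes stand lowest with the widest bars.

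The fibrinogen genes had lower means at 12 than at 8 weeks, with no call. Fga stood at 6948, 6145, 6099 and 9220.3 CPM at 8 weeks, at 4458, 10025, 5023 and 5139.5 at 10 weeks, and at 5423, 4328, 4821 and 3906 at 12 weeks. Fgb stood at 6081, 5112, 4803 and 7593, then at 4007, 8820.2, 4397 and 4550.2, and at 12 weeks at 4522, 4002, 4246 and 3505 CPM. Fgg stood at 3137, 2627, 2493 and 3662, then at 2118, 4301, 2419 and 2346, and at 12 weeks at 2344, 2016, 2288 and 1735 CPM. For all 3 genes every liver of 12 weeks lay below every liver of 8 weeks, and replicate 2 of 10 weeks was the highest of the 12 livers. The 3 genes moved together from liver to liver, so these are not 3 separate readings. The log2 fold change at 12 against 8 weeks was -0.60 for Fga (SE 0.259, edgeR adjusted p = 0.301), -0.52 for Fgb (SE 0.254, adjusted p = 0.357) and -0.49 for Fgg (SE 0.231, adjusted p = 0.342). With both strand columns the value for Fgg was -0.53 (adjusted p = 0.319).

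The 3 chains kept nearly fixed proportions from liver to liver. The ratio of Fga to Fgb counts lay between 1.08 and 1.27 (median 1.14), and that of Fgb to Fgg between 1.82 and 2.07. Across the 12 livers, log2 CPM correlated with r = 0.989 (Spearman rho = 0.993) for Fga and Fgb, r = 0.984 (rho = 0.972) for Fga and Fgg and r = 0.992 (rho = 0.979) for Fgb and Fgg. Each permutation p was 1e-05 (two-sided permutation test, n = 12), the smallest that 100000 permutations can give, and 1.33e-05 after adjustment over the 4 pairs of genes tested. Without the 2 livers farthest from the median, 8 weeks replicate 4 and 10 weeks replicate 2, r was 0.972, 0.957 and 0.982. For deviations from the age means, r was 0.990, 0.984 and 0.990 (permutation within ages, p = 5e-05, 0.00016 and 0.00011). The livers share library depth and a total that the genes themselves enter.

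Apoa1 and Apoc3, the other pair of neighbours tested, did not move together in this way. Their r was 0.156 (permutation p = 0.627) and rho 0.294 (permutation p = 0.353, n = 12), and r without the 2 farthest livers was 0.369. For deviations from the age means r was 0.720 (permutation within ages, p = 0.0293, adjusted 0.0293).

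The liver with the highest fibrinogen values also held the highest acute phase mRNA. Summed over 17 acute phase genes, 10 weeks replicate 2 held 36218 CPM, and the other 11 livers 9465 to 17673. Saa1, which encodes serum amyloid A, stood at 4015 CPM there against 1224 in the next liver, Saa2 at 2799 against 576, and Hp (haptoglobin, which binds free haemoglobin) at 7976 against 5345. The liver with the second highest Fga, 8 weeks replicate 4, had the second highest sum. None of the 17 genes was called at 12 against 8 weeks by edgeR, where 0.239% of all genes were (2 at an unadjusted p under 0.05, where 15.1% of all genes were), and their median log2 fold change was -0.17 beside -0.00 over all genes. Summed Kupffer cell markers, which mark liver macrophages, were 70.2 to 171 CPM at 8 weeks, 198 to 297 at 10 weeks and 106 to 119 at 12 weeks. Endothelial markers summed to 103 to 206, 197 to 210.2 and 85.6 to 124 CPM at the 3 ages, and markers of stellate cells and fibroblasts to 180.1 to 359, 235 to 299 and 150.0 to 239. At 12 against 8 weeks 6 of 6 endothelial and 7 of 7 stellate and fibroblast markers had a fold change below 0, with 5 and 3 at an unadjusted p under 0.05 and no call by edgeR. The part of these cells in the fibrinogen values was not tested.

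**Figure D3:**
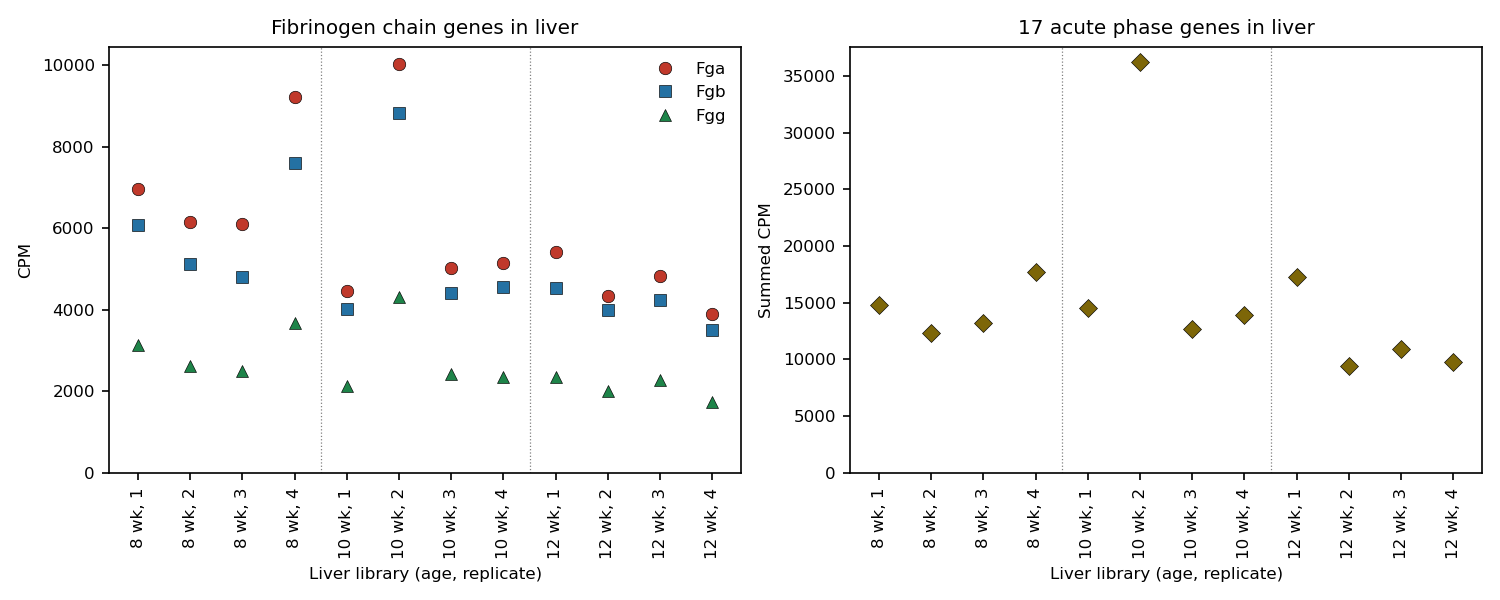
Left, CPM of Fga, Fgb and Fgg in each liver library by age and replicate number; right, summed CPM of 17 acute phase genes in the same libraries. The 3 chains vary together and reach their highest values in 10 weeks replicate 2, where the acute phase sum is 36218 CPM. They lie lower in all 4 livers of 12 weeks than in any liver of 8 weeks, without a call by edgeR.

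The lists of related liver genes were read against the 0.239% of all genes called at 12 against 8 weeks and the 15.1% at an unadjusted p under 0.05. Of 30 tested genes for other plasma proteins, 20 of lipoprotein assembly and turnover, 18 of coagulation and fibrinolysis, 9 serpins of the same clusters and 16 liver transcription factors, edgeR called 0 in each list, with 2, 3, 3, 0 and 4 at an unadjusted p under 0.05. Their median log2 fold changes were -0.02, 0.02, 0.01, 0.03 and 0.14. Among 25 intracellular hepatocyte genes 1 was called, Cyp2c50, a cytochrome P450 that oxidizes fatty acids and drugs, at 493 ± 123 CPM at 8 weeks and 880.0 ± 56.6 at 12 weeks (log2 fold change 0.87, SE 0.146, edgeR adjusted p = 0.0312). That list had 6 genes at an unadjusted p under 0.05 and a median of 0.24. None of 6 proliferation genes was called (2 at an unadjusted p under 0.05), with a median of 0.29.

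The genes whose levels were most like the 10 were sought among 7338 protein coding genes with at least 10 CPM in liver, by Pearson's r over 12 livers with the mean of the 10 standardised profiles. Cfi (complement factor I, which cuts C3b and C4b) had r = 0.887, followed by Aig1 (0.857), Tmem176b (0.819), Brd8 (0.819) and Tmem176a (0.818). These are the highest of 7338 values over 12 livers, so high r values follow from the search itself. Of the 10 genes, the mean profile lay closest to Fgg (0.814), Fgb (0.796) and Fga (0.774) and farthest from Apob (-0.405). Each of the 10 genes was set against the mean of the other 9 profiles. The r was 0.680 for Fgg, 0.653 for Fgb and 0.619 for Fga, each of which had the other 2 fibrinogen genes among the 9. It was 0.345 for Apoa1, 0.184 for Serpina1a, 0.0560 for Apoc3, 0.0338 for Alb, -0.253 for Serpina3k, -0.274 for Apoa2 and -0.597 for Apob. These r values describe 12 libraries that share a tissue and a total.

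In kidney the 10 genes summed to 297 to 444 CPM, and their mix differed from that of liver. Apob, at 287 ± 25.3 CPM (SD, n = 12), held most of the sum and stood at 4.70% of its liver level. Its 12 kidneys lay between 247 and 334 CPM, and all ages overlapped. Serpina1a reached 1.28% of liver, Apoc3 0.436%, Fga 0.401% and Fgg 0.155%. Fgb, at 0.690 ± 0.541 CPM, reached 0.0134%, Alb, at 6.74 ± 1.09 CPM, 0.00939% and Apoa1, at 0.510 ± 0.249 CPM, 0.00637%. Serpina3k had 4 counts in 12 kidneys together, 9.48e-05% of its liver level (95% exact Poisson interval 2.68e-05 to 0.000252, for counting error only). The shares thus spanned a range of 49593.5-fold between the genes. With TMM factors over all 36 libraries in place of plain library totals, kidney shares would be 0.573 to 0.580 times as large.

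The proportions among the genes showed the same difference. For every 100 counts of Alb, the 12 livers together held 8.54 of Apob, 3.14 of Serpina1a, 8.37 of Fga and 16.9 of Serpina3k, and the 12 kidneys 4272 of Apob, 428 of Serpina1a, 355 of Fga and 0.180 of Serpina3k. The fibrinogen chains stood in other proportions in kidney than in liver. Fgb had 232 counts in the 12 kidneys together, so counting error widens the ranges of its ratios. Fgg kept 62.2% of its kidney pairs in the column used. The ratio of Fga to Fgb counts lay between 15.3 and 71.9 with a median of 34.5, and every kidney lay above every liver. That of Fgb to Fgg lay between 0.0753 and 0.387, below every liver. Per kilobase of exon, kidney levels were 20.6 CPM for Apob, 7.46 for Fga and 5.80 for Serpina1a, with the other 7 genes between 0.00211 and 1.7.

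Genes that work with these proteins differed in kidney from one to the next. Mttp, which loads lipid onto the Apob protein, stood at 27.0 CPM in kidney, 395 in liver and 7.31 in heart. Hnf4a, which encodes the transcription factor HNF4, stood at 899 ± 51.2 CPM in kidney, 795 ± 157 in liver and 0.0284 in heart. Among the serpin copies, Serpina1d stood at 122 ± 18.3 CPM in kidney and Serpina1f at 85.4 ± 11.5, with no count of Serpina1f in any liver, while Serpina1e stood at 11730 CPM in liver and 0.0985 in kidney. By CPM, which is not set per length, the other lists were led in kidney by Serpinf2 (alpha-2-antiplasmin, 300 CPM, 41.3% of liver), Ttr (123) and Pzp (93.0) among plasma proteins, and F13b (161, 67.4% of liver) and Proc (104) in coagulation. In lipoprotein turnover these were Angptl4 (101), Abca1 (61.3) and Apom (55.8), among transcription factors Hnf4a and Nr1h4 (154), and among acute phase genes Cp (47.6), Lcn2 (2.46) and Hp (1.30). Of the intracellular hepatocyte genes, Hpd stood at 70.3, Gnmt at 16.9 and Bhmt at 1.59 CPM.

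Across ages in kidney, none of the 8 genes that passed the filter was called by edgeR, DESeq2 or limma-voom in any of the 3 comparisons. By edgeR 0.929% of all genes were called at 10 against 8 weeks, 0.482% at 12 against 10 weeks and 0.0567% at 12 against 8 weeks. At an unadjusted p under 0.05 there were 1, 2 and 1 of the 8 genes, beside 16.5%, 16.4% and 11.7% of all genes in the same order. The gene at 12 against 8 weeks was Apoa1 (log2 fold change -1.30, SE 0.373, edgeR adjusted p = 0.237). Apoa1 passed the filter through the kidneys of 8 and 10 weeks alone, so this value is no support for a fall. Apoa2 and Serpina3k did not pass the filter. Serpina1a stood at 20.5, 23.2, 20.7 and 16.0 CPM at 8 weeks, at 14.0, 74.1, 46.6 and 36.7 at 10 weeks and at 20.5, 20.7, 28.5 and 23.3 at 12 weeks. Of the 10-week kidneys, 3 lay above all others and 1 below. The log2 fold change at 10 against 8 weeks was 1.09 (SE 0.336, edgeR adjusted p = 0.126). Without that low kidney, 10 weeks replicate 1, it was 1.37 and was called (adjusted p = 0.0159), as was the difference at 12 against 10 weeks (-1.15, adjusted p = 0.0428). In each comparison the other 11 of the 12 fits without 1 kidney called none of the genes. The kidney left out is the one that went against the rise, so these calls are no support for it. Serpina1b, a copy of the same family, was also highest in 10 weeks replicate 2 (13.4 against 6.82 CPM in the next kidney). Alb stood at 7.22, 7.07, 7.03 and 5.31 CPM at 8 weeks, 6.77, 6.84, 5.05 and 5.59 at 10 weeks and 7.53, 5.82, 8.40 and 8.22 at 12 weeks, with overlap between all ages.

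In heart the 10 genes were near 0 in most libraries and above it in 3. The 4 hearts of 8 weeks held 1, 2, 3 and 2 counts over all 10 genes, from Apoa1 and Fga alone. Alb had 0 counts in all 4, which allows a pooled level of up to 0.0293 CPM at the limit of 3 counts over the group, so liver of that age stood at least 2.68e+06-fold higher. At 10 weeks the sums were 4, 499, 6 and 720 counts, and at 12 weeks 3, 24, 3 and 110. As CPM, the sums were 22.9 (95% exact Poisson interval 21 to 25.1) and 29.7 (27.6 to 32.0) in replicates 2 and 4 of 10 weeks and 4.09 (3.36 to 4.93) in replicate 4 of 12 weeks. Replicate 2 of 12 weeks came next with 0.854, and the other 8 hearts lay between 0.0405 and 0.242.

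These 3 hearts held most of the liver list at once. Of the 10 genes, 9, 10 and 9 had a count there, against 7 in 12 weeks replicate 2 and 1 to 3 in the rest. Heart 10 weeks replicate 4 held 368 counts of Alb, 140 of Serpina3k, 68 of Apoa1, 35 of Serpina1a, 27 of Fgb, 25 of Apob, 22 of Fga, 20 of Fgg, 12 of Apoc3 and 3 of Apoa2. Its levels lay between 0.0152% (Fga) and 0.0642% (Serpina1a) of the liver mean, a range of 4.21-fold, with a median of 0.0300%. Heart 10 weeks replicate 2 held 224 counts of Alb, 61 of Apoa1, 60 of Serpina3k and 0 of Apoa2, with a median of 0.0266% of liver. In 12 weeks replicate 4 there were 70 counts of Alb, 13 of Serpina3k, 10 of Apoa1 and 0 of Apob, with a median of 0.00379%.

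The mix of genes in these hearts was set against single livers and against the kidneys, as counts for every 100 counts of Alb with 95% exact binomial intervals. In heart 10 weeks replicate 4, 2 of the other 9 genes had an interval above the highest liver. Serpina3k stood at 38 (31.1 to 46.3), where livers held 12.4 to 23.8 and the kidneys together 0.180. Serpina1a stood at 9.51 (6.52 to 13.5) against 2.56 to 4.47 in livers. In heart 10 weeks replicate 2 there were 4 such genes, Fgg at 15.6 (10.6 to 22.4, livers at most 6.46), Fgb at 19.6 (13.9 to 27.2, livers at most 13.3), Apoa1 at 27.2 (20.2 to 36.3, livers at most 14.5) and Apoc3 at 5.80 (3.04 to 10.1, livers at most 2.46). Its Serpina3k, at 26.8 (19.8 to 35.8), reached into the liver range. The intervals of the other 5 and 7 genes overlapped the livers in replicates 2 and 4, Apob and Fga among them in both. In 12 weeks replicate 4, 8 genes overlapped and Apob, with 0 counts, lay below (at most 5.41 against 5.74 in the lowest liver). The intervals cover counting error only.

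**Figure D4:**
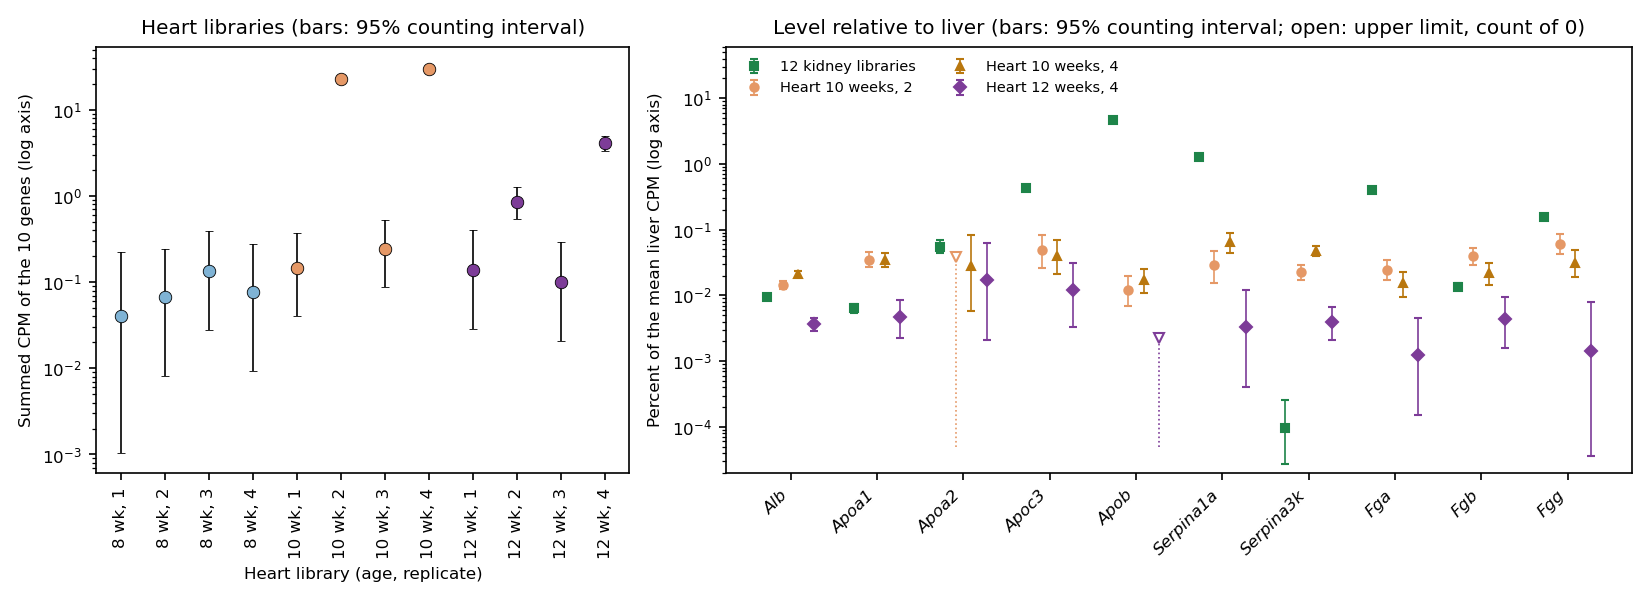
Left, summed CPM of the 10 genes in each heart library on a log axis with 95% exact Poisson intervals; right, the level of each gene as a percent of its mean liver CPM on a log axis, for the 12 kidneys pooled and the 3 hearts with the highest sums, with 95% counting intervals and open symbols for upper limits at a count of 0. Kidney runs from 9.48e-05% for Serpina3k to 4.70% for Apob, while heart 10 weeks replicate 4 runs from 0.0152% to 0.0642%.

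Other genes of liver moved with the traces in heart. Of 25 intracellular hepatocyte genes, whose products are not secreted, 23 and 25 had counts in replicates 2 and 4 of 10 weeks and 20 in replicate 4 of 12 weeks, against 9 to 12 in the other hearts. Their summed CPM were 10.4, 15.6 and 5.91 in these 3 libraries and 2.79 to 4.37 in the others, and none of the others had a median level above 0% of liver. Of 31 genes for other plasma proteins, 28, 30 and 24 had counts in the 3 and 16 to 21 in the others. By CPM, the lists were led in heart by Cp (ceruloplasmin, 149 CPM), C3 (110) and Trf (transferrin, 24.9) among plasma proteins, Lrp1 (105), Abca1 (37.8) and Scarb1 (25.1) in lipoprotein turnover, and Pros1 (26.2), F5 (0.411) and Serpind1 (0.339) in coagulation. Serpina3n stood at 8.96, Prox1 at 61.8, Cebpb at 51.2, Cebpa at 6.52 and Gnmt at 1.66 CPM. Kidney tubule markers summed to 1.5 to 9.66 CPM in the hearts, highest in 12 weeks replicate 1, where Kap stood at 5.68. The part of liver or other RNA in the heart values was not tested.

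Across ages in heart, none of the 8 genes that passed the filter was called by edgeR, and Apoa2 and Apoc3 did not pass it. Of the 8, 7 passed through the hearts of 10 weeks alone and Alb through those of 10 and 12 weeks, so the filter itself fixed that 10 weeks was higher in this set and the counts of genes say nothing more. Of all genes, 1.06% were called at 10 against 8 weeks, 0.0396% at 12 against 10 weeks and 4.56% at 12 against 8 weeks. At an unadjusted p under 0.05 there were 8, 8 and 0 of the 8, beside 15.8%, 11.7% and 23.4% of all genes. DESeq2 called Alb at 10 against 8 and at 12 against 8 weeks (2.42% and 8.39% of all genes), and limma-voom called none. For Alb the fitted log2 fold change was 10.35 at 10 against 8 weeks (SE 2.59, edgeR adjusted p = 0.0772). Alb had no count at 8 weeks, so this value depends on the prior count of the fit and is no bound. Within the 4 hearts of 10 weeks, Alb stood at 10.3 and 15.2 CPM in replicates 2 and 4 and had 2 counts in each of the other 2 hearts.

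Between tissues, all 10 genes, which passed the filter through liver, were called higher in liver than in heart and higher in liver than in kidney, in a fit of all 36 libraries (edgeR). Of the 19716 genes tested, 42.2% were called higher in liver than in heart and 37% higher in liver than in kidney. The 10 genes were chosen as known liver products, so their count of calls follows from the choice and adds no support. Tissues share animals, which this fit does not allow for. Against kidney the log2 differences ran from 5.20 for Apob (SE 0.162) to 20.2 for Serpina3k (SE 0.560), with 14.18 for Alb (SE 0.559). Against heart they ran from 14.4 for Apoa2 to 18.3 for Alb (SE 0.681), and without the 3 hearts with high sums from 14.6 for Apoa2 to 21.1 for Alb (SE 0.272), with 20.5 for Serpina3k and 18.3 for Apoa1. The hearts of 8 weeks held 0 counts of 8 of the 10 genes, so the size of these differences rests on the prior count. Leaving out the 3 hearts, which were picked by their high sums of these genes, raises the differences by itself.

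Kidney was higher than heart for 8 of the 10 genes, where 47.1% of all genes were called in that direction. The largest differences were those of Apob (12.0, SE 0.281) and Serpina1a (9.0), with 4.08 for Alb (SE 0.795, edgeR adjusted p = 2.37e-05). Apoa1 had 0.81 (SE 0.642, adjusted p = 0.239). For Serpina3k edgeR gave -3.20 (F-test, unadjusted p = 0.995), with 0 counts in hearts of 8 weeks and 4 in the 12 kidneys together. The SE computed for this value was 523, which restates an F statistic near 0 and is not a measured error. DESeq2 called Serpina3k lower in kidney (-3.90, adjusted p = 0.000271), as did limma-voom (-2.07, adjusted p = 0.0377). In all, DESeq2 called 9 and limma-voom 10 of the 10, where each called 86.5% of all genes in either direction. Without the 3 hearts, 9 of the 10 were called by edgeR (84.6% of all genes in either direction). Apob then stood at 14.1, Serpina1a at 12.1, Alb at 6.96 and Apoa1 at 3.43 (adjusted p = 6.05e-08), and Serpina3k at 0.32 (SE 0.397, adjusted p = 0.460). The 3 hearts were picked by their high sums of these same genes, so larger differences without them follow from that choice. The call of Apoa1 in this fit is therefore no support for a difference.

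The change from 8 to 12 weeks was not called different between liver and kidney for any of the 10 genes (edgeR interaction, 0.304% of all genes called, 0 of the 10 at an unadjusted p under 0.05 beside 11.2% of all genes, and 0 by DESeq2 and limma-voom). Between liver and heart 0 of the 10 were called as well (4.16% of all genes), with 1 at an unadjusted p under 0.05 (18.4% of all genes), Alb (-7.53 on the log2 scale, adjusted p = 0.165), which DESeq2 called (7.05% of all genes) and limma-voom did not. Without the 3 hearts, Alb (-5.22, SE 1.39, adjusted p = 0.0264) and Apob (-4.20, SE 1.20, adjusted p = 0.0391) were called in this contrast, where 5.7% of all genes were. At these counts of 0 to 10 in the remaining hearts, the size of both values rests on the prior count. The 3 hearts were picked by their values for these genes, which also cuts the spread. With all hearts the SE was 3.05 for Alb and 2.22 for Apob. The 2 calls are therefore no support for a difference.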

How the data were processed

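RNA of 36 mouse libraries (heart, kidney and liver at 8, 10 and 12 weeks, 4 biological replicates each) was used as deposited. The authors checked reads with FastQC 0.11.9, trimmed them with cutadapt 4.2, aligned them with STAR 2.7.11b to GRCm39 (Ensembl v113 genes), and deposited whole-number read counts per gene without normalization. The unstranded column was taken, since 49.8% to 50.2% of stranded counts fell on the first strand. Gene names, exons and promoters came from GENCODE vM39 on the same build, which named 78168 of 78239 identifiers.

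Libraries held 21031599 to 33637390 counted pairs, and the common coefficient of variation was 0.206 in liver, 0.118 in heart and 0.113 in kidney. CPM are plain, on counted pairs. Following the study, a gene was kept with a mean count of at least 10 and counts in at least 2 samples in some age group. edgeR 4.0.16 (R 4.3.3) with TMM factors gave the tests, per tissue with a mean for each age, and over all 36 libraries with a mean for each group, with adjustment over all genes kept (14672 in liver, 15137 in heart, 17649 in kidney, 19716 over all). Alternatives used DESeq2 1.42.0, limma 3.58.1 (voom), other factors, filters and strand columns, a replicate block, and fits without single libraries. Correlations and intervals used scipy 1.17.1 under python 3.11.15, and plots used matplotlib 3.10.9. The SE given with an edgeR value is the size of its log2 fold change divided by the square root of the F statistic. That fold change is shrunk by a prior count, so these SEs are approximate. The pipeline was tested on simulated data.

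The members and gene lists were chosen with earlier results of these data known. Named genes are the 10 genes, list genes called in liver at 12 against 8 weeks, the 3 genes of a list with the highest level in heart and in kidney, and the 5 genes most like the 10 in liver. Antisense partners, serpin copies, Mttp, Kap, Saa1 and Saa2 were named after their values were seen. A gene that this rule would name is not reported here. The study used fewer mice than there are libraries, so libraries of different tissues must share animals. It is not stated whether those with the same number come from the same animal. The main fit over all 36 libraries took them as separate samples. Its p-values and SEs between tissues therefore do not allow for shared animals. A fit with a block for age and number was an alternative. There, Alb differed by 14.2 (SE 0.548) between liver and kidney and by 4.27 (SE 0.821) between kidney and heart. The tissues were not stated to have been perfused.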

Additional observations from a re-analysis of the deposited data

Results flagged for a closer look

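In groups of 4 libraries, Dixon's ratio singled out 1 library in 15 of the 82 group and gene combinations tested. In 6 of the 15 the other 3 libraries had 0 counts, which makes the ratio pass whatever the count, and 9 of the other 76 were singled out, where chance gives about 1 in 20 for values that do not tie. In liver, 10 weeks replicate 2 stood above its group for Fga (10025 CPM), Fgb (8820.2) and Fgg (4301), which are 3 readings of 1 liver.

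In heart, 12 weeks replicate 4 stood above its group for Alb (2.60 CPM), Apoa1 (0.372), Apoc3 (0.149), Serpina1a (0.0744) and Fga (0.0744). The 2 hearts of 10 weeks with higher sums were not singled out, since this ratio finds 1 library that stands alone.

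In kidney, 8 weeks replicate 4 was lowest for Alb (5.31 CPM) and highest for Fgb (2.32), 12 weeks replicate 3 highest for Apoa1 (0.533) and 10 weeks replicate 2 highest for Apoc3 (9.50). For Serpina3k, 8 weeks replicate 2 (0.0404 CPM), 10 weeks replicate 2 (0.0376) and 12 weeks replicate 1 (0.0612) stood out with 1 or 2 counts where the other kidneys of their group had 0.

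In the strand columns, which entered only as alternatives, liver pairs on both strands exceeded those counted without regard to strand 9.82-fold for Apoa2 and 1.79-fold for Fgg.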

How the results depend on the processing

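Of the counts of called genes, 34 moved and 408 did not over all settings, and of the log2 fold changes 15 changed sign, 6 gained and 14 lost the call and 1135 did neither. In brackets here are the genes called of all genes tested. In liver at 10 against 8 weeks, the count was 1 with DESeq2 (361 of 14672), library sizes alone (9 of 14672) and no filter (350 of 34374). At 12 against 8 weeks it was 0 with the replicate block (25 of 14672) and first strand counts (37 of 16388). It was also 0 with the sum of strands (48 of 18220) and a fit of 2 ages (23 of 14367). Without single libraries it was 0 to 1 (2 to 84 genes). In heart at 10 against 8 weeks it was 1 with DESeq2 (2.42% of all genes) and 7 with the block (232 of 15137). Without single libraries it was 0 to 1. At 12 against 10 weeks it was 2 with the block (15 of 15137). At 12 against 8 weeks it was 1 with DESeq2 (8.39% of all genes) and 2 with the block (731 of 15137). In heart these genes passed the filter through the hearts of 10 weeks, so these counts say nothing more. In kidney at 10 against 8 and at 12 against 10 weeks it was 0 in 11 of the 12 fits without single libraries. The interaction with heart gave 1 with DESeq2 (7.05% of all genes) and 2 without the 3 hearts (5.7% of all genes). With no filter the counts in heart, at these ages in kidney and in both interactions moved too, and the cause was not tested. For these fits, and for those without single hearts or kidneys, the share over all genes was not set beside the counts. Nothing is read from them. The fit without the 3 hearts and the sum of strands were chosen after seeing the data. The sign of the liver difference at 12 against 8 weeks turned without single libraries for Alb (-0.139 to 0.0512), Apoa1 (-0.175 to 0.086) and Apob (-0.101 to 0.138), and for Apob also with DESeq2 and RLE factors (0.0062), limma-voom (0.0037), no filter (0.0219), the block (0.0017) and 2 ages (0.0098). Serpina3k in kidney against heart was 0.32 without the 3 hearts. Without single livers r was 0.986 to 0.995 (Fga and Fgb), 0.976 to 0.988 (Fga and Fgg), 0.986 to 0.995 (Fgb and Fgg) and 0.0169 to 0.388 (Apoa1 and Apoc3), the last 0.701 with the replicate block. Same-numbered libraries of a tissue did not deviate together over ages (r -0.34 to 0.28), and those of 1 age correlated best with their own number in 12 of 12 cases for liver and kidney, 7 for liver and heart and 10 for kidney and heart. Per-kilobase levels moved with the longest transcript as length. Depth limits the heart traces, where most libraries held under 10 counts over the 10 genes.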
